A study of Mus musculus with 12 samples.

Results

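CIDEA KO and WT mouse embryonic stem cells (ESCs) were compared before induction, at 0 h, from 4 of the 12 RNA-sequencing libraries of the series. Of these 4 libraries, 2 came from *Cidea* -/- ESCs and 2 from wild type ESCs of the R1 line, all grown with LIF in 10% serum. The other 8 libraries came from spheroids of the same genotypes at 24 h and 48 h, without LIF in 15% serum, and are used here only to estimate the spread between replicates and to follow the genes named at 0 h. According to the study's methods, the KO cells were made from R1 by deleting the *Cidea* locus with Cas9 and a pair of guides. The sequenced KO cells were a single clone according to the study, so loss of *Cidea* cannot be told apart from any other change that this clone carries. A stretch of chromosome 10 from 31.3 to 63.4 Mb (GRCm38), which holds 174 of the 17424 genes tested, was left out, and the 17250 genes outside it are described. Replicates are independent samples in the study's description, and p-values measure the spread between them.

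*Cidea* itself was present in WT and absent from KO libraries. It had 89 and 67 estimated counts in the WT libraries and 0 in both KO libraries. Against a floor of 3 counts per library, *Cidea* was at least 24.6-fold lower in KO ESCs on unscaled CPM, the count divided by the library total in M. The depth of the 4 libraries was close, at 30.9 and 30.4 M estimated counts in WT and 29.0 M in each KO library. At equal depth, 17706 and 17641 genes were detected in WT and 19057 and 18638 in KO libraries, so that detection moved with genotype, and its part in the results was not tested beyond a fit that held it as a covariate. The labelled cell type was checked against its markers. All 14 general and all 16 naive pluripotency genes were above 1 TPM, a level scaled for depth and transcript length, in at least 1 of the 4 libraries. Of 12 mesoderm markers 9 stayed under 1 TPM in all 4, as did 8 of 12 fibroblast markers, with *Col3a1*, *Postn* and *S100a4* at 0. Other markers were present, since 9 of 13 of primitive endoderm (*Gata4*, *Gata6*, *Sox17* and *Pdgfra* among them), 9 of 12 of trophoblast and 6 of 11 of neuroectoderm reached 1 TPM in at least 1 library. The primitive endoderm markers summed to 56.3 to 57.0 TPM in WT and 50.2 to 58.8 TPM in KO, and the neuroectoderm markers to 141 to 156 TPM in WT and 150.0 to 161 TPM in KO. The summed level of the fibroblast markers was 30.7 to 42.9 TPM in WT and 22.8 to 29.0 TPM in KO, and that of 12 trophoblast markers 50.5 to 58.9 TPM in WT and 43.2 to 45.3 TPM in KO. In bulk libraries, fewer cells of a type and less RNA per cell cannot be told apart.

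CIDEA sits on lipid droplets and helps them to fuse and enlarge. ESCs grown with LIF and serum are held near the naive state, in which factors such as OCT4, SOX2, NANOG, ESRRB and KLF4 keep cells self-renewing, while factors such as OTX2 and LEF1 come up as cells leave it. Cells that sense a shortage of amino acids or stress in the endoplasmic reticulum translate the factor ATF4, which switches on amino acid transporters, enzymes of amino acid synthesis and tRNA synthetases, often through a composite element, TGATGNAA, in the promoter.

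Few genes outside the stretch were called as different between the genotypes. At 0 h, 171 of 17250 genes (0.991%) were called, meaning an adjusted p under 0.05 by the edgeR quasi-likelihood model after Benjamini-Hochberg correction over all 17424 genes. Of these, 48 (0.278%) were higher and 123 (0.713%) lower in KO ESCs, while the median log2 fold change over all genes was 0.01 (KO minus WT throughout). An unadjusted p under 0.05 by edgeR was seen for 1653 of the 17250 genes, and genes that were not called may still differ. Most of the called differences were small. A change of more than 2-fold was seen for 6 of the higher and 33 of the lower genes, and 27 of the higher and 57 of the lower genes changed by less than 1.5-fold. The calls depended on the libraries. With 1 ESC library left out, so that the lone library of that genotype was assumed to vary like the other groups, 78 genes were called without WT replicate 1, 94 without WT replicate 2, 62 without KO replicate 1 and 44 without KO replicate 2. The calls of 29 genes held each time, and all 171 kept their direction. With average transcript lengths as offsets the count was 40, of which 35 were among the 171. Other settings called more genes, among them DESeq2 and edgeR without a filter on low counts, as given at the end.

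**Figure D1:**
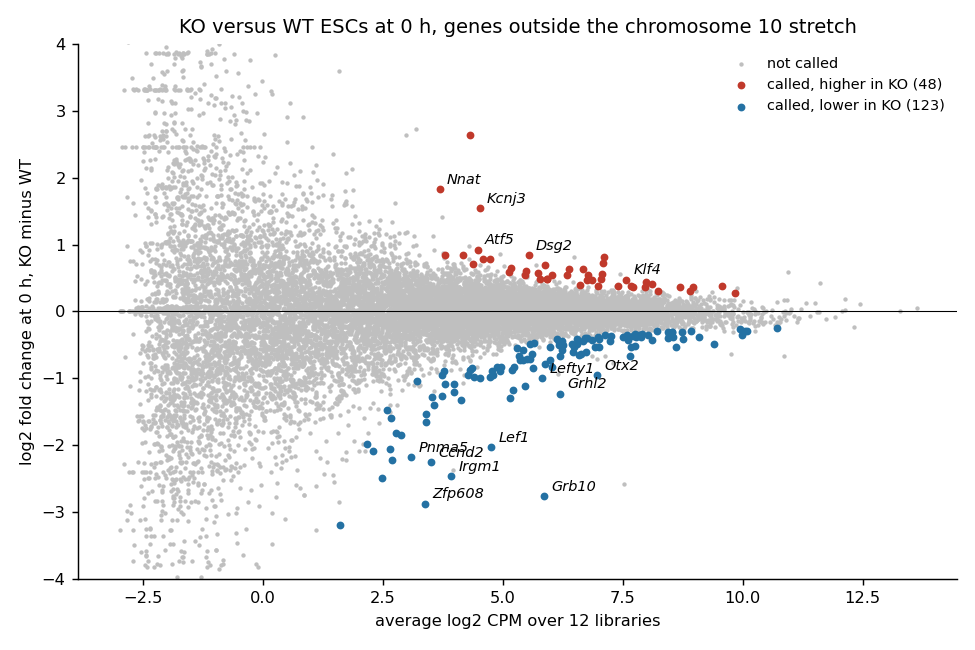
Each point is 1 of the genes outside the chromosome 10 stretch, with its average log2 CPM over 12 libraries on the x axis and its log2 fold change at 0 h (KO minus WT) on the y axis. The 48 red and 123 blue points are the called genes, which lie close to 0 among highly expressed genes, and 554 genes beyond the y axis, 6 of them called, are not shown.

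Among the 12 largest falls, *Grb10* had by far the highest counts. *Grb10*, an imprinted adaptor of insulin receptor signalling (chromosome 11, 11930508 to 12038683), was at 124 and 138 CPM in WT and 17.9 and 20.7 CPM in KO (CPM after TMM scaling, as for all CPM values below). Both KO libraries were far below both WT libraries, a 6.79-fold difference (log2 fold change -2.76, standard error 0.128, adjusted p = 1.3e-10). *Pnma5*, on the X chromosome, was at 11.3 and 18.1 CPM in WT and 3.09 and 3.36 CPM in KO (log2 fold change -2.18, adjusted p = 0.00049). *Ccnd2*, which encodes cyclin D2, was at 5.17 and 3.32 CPM in WT and 1.11 and 0.665 CPM in KO (log2 fold change -2.25, adjusted p = 0.00067). *Zfp608*, a zinc finger gene, was at 1.15 and 1.71 CPM in WT and 0.243 and 0.140 CPM in KO (log2 fold change -2.88, adjusted p = 0.00088). *Grb10*, *Pnma5*, *Ccnd2* and *Zfp608* were called with each ESC library left out in turn, and for each of them the genotypes did not overlap. *Grb10* was called in every other alternative too, whereas the calls of the other 3 were lost with limma on log2(TPM + 1) and log2(TPM + 0.1), those of *Pnma5* and *Ccnd2* with average transcript lengths as offsets, and those of *Ccnd2* and *Zfp608* with only the 4 ESC libraries in the fit. *Dll1*, a ligand of Notch receptors, was at 2.50 and 1.44 CPM in WT and 0.417 and 0.280 CPM in KO (log2 fold change -2.49, adjusted p = 0.0091), and *Arl14epl* was at 13.5 and 10.3 CPM in WT and 3.69 and 1.40 CPM in KO (log2 fold change -2.22, adjusted p = 0.0091). *Cacna1g*, a T-type calcium channel, was at 1.48 and 2.62 CPM in WT and 0.661 and 0.315 CPM in KO (log2 fold change -2.06, adjusted p = 0.028). *Nkx2-9*, a homeobox gene, was at 3.03 and 1.61 CPM in WT and 0.348 and 0.735 CPM in KO (log2 fold change -2.09, adjusted p = 0.047). *Dll1*, *Arl14epl*, *Cacna1g* and *Nkx2-9* each lost their call in at least 2 of the 4 fits with a library left out. *Tgtp1* and *Irgm1*, interferon-inducible GTPases, and *Lef1* complete this group with the predicted gene *Gm10718*, which was at 27.4 and 25.2 CPM in WT and 0.487 and 0.0 CPM in KO. Its neighbour in name *Gm10715* had 63 and 64 counts in WT and 0 in both KO libraries. Reads of such near-identical genes can be divided between copies, and both values are uncertain.

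Of the 12 largest rises, 3 rest on few reads, those of *Thbs4*, *Cyp1a1* and *Cxcl12*. *Nnat*, an imprinted gene for a small membrane protein of the endoplasmic reticulum, was at 4.32 and 3.39 CPM in WT and 14.3 and 13.1 CPM in KO, 3.54-fold higher in KO (log2 fold change 1.83, standard error 0.265, adjusted p = 0.00072). *Kcnj3*, an inwardly rectifying potassium channel, was at 5.44 and 4.03 CPM in WT and 15.1 and 12.5 CPM in KO (log2 fold change 1.55, adjusted p = 0.00012). *Car2*, a carbonic anhydrase, was at 23.9 and 29.5 CPM in WT and 53.8 and 40.3 CPM in KO (log2 fold change 0.82, adjusted p = 0.0014). The KO libraries were above the WT libraries for all 3 genes, and their calls held with each library left out. The rest of the 12 were *Sema5b*, a semaphorin (12.9 and 15.1 CPM in WT and 23.8 and 26.4 CPM in KO), *Fam129a* (40.4 and 35.4 CPM in WT and 62.3 and 68.3 CPM in KO), *Atf5*, *Pck2*, *Perp* and *Dsg2*, of which the last 4 are described with their groups below. The calls of *Sema5b* and *Fam129a* were lost with any ESC library left out and with average transcript lengths as offsets. *Thbs4* had 0 counts in both WT libraries and 7 in each KO library, and *Cyp1a1*, the main target gene of the aryl hydrocarbon receptor, had 0 in WT and 6 in each KO library. Against the floor of 3 counts, *Thbs4* was at least 2.46-fold and *Cyp1a1* at least 2.11-fold higher in KO. The chemokine gene *Cxcl12* was at 0.0330 and 0.0670 CPM in WT and 0.243 and 0.420 CPM in KO. The calls of *Thbs4*, *Cyp1a1* and *Cxcl12* were lost whichever ESC library was left out. No other gene among the 11 of the aryl hydrocarbon receptor list was called.

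Of the general pluripotency factors few were called. *Pou5f1* was at 1278 and 1283 CPM in WT and 1283 and 1344 CPM in KO, and *Sox2* was at 492 and 519 CPM in WT and 467 and 473 CPM in KO, neither of them called (adjusted p = 0.97 and 0.77). Of the 14 genes of this list, 1 rose and 1 fell (14.3%, against 0.991% called over all genes), with a median log2 fold change of -0.03. *Zfp42*, the marker REX1 of naive ESCs, was at 616 and 603 CPM in WT and 726 and 788 CPM in KO (log2 fold change 0.31, adjusted p = 0.036). *Lin28a*, an RNA-binding protein that blocks let-7 maturation, was at 230.2 and 255 CPM in WT and 169 and 167 CPM in KO (log2 fold change -0.53, adjusted p = 0.00015). The call of *Lin28a* held with each library left out, that of *Zfp42* with none.

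Among the 16 naive pluripotency genes, *Klf4* was called as higher and none as lower, and the list median was 0.15. Called genes were 6.25% of this list, against 0.991% of all genes. *Klf4* was at 371 and 351 CPM in WT and 512 and 492 CPM in KO (log2 fold change 0.47, adjusted p = 0.0058), a call lost without WT replicate 2 or KO replicate 1. *Nanog* was at 412 and 428 CPM in WT and 475 and 471 CPM in KO and *Esrrb* at 982 and 1000.4 CPM in WT and 1091 and 1142 CPM in KO, higher in both KO libraries than in both WT libraries but not called (adjusted p = 0.50 and 0.36). Of the 16 genes, 11 had a log2 fold change above 0 and 5 below 0, beside 8766 of 17250 above 0 over all genes. The values went from -1.60 to 0.47, so the largest difference in the list was a fall, which was not called. *Tfcp2l1* was at 416 and 445 CPM in WT and 425 and 414 CPM in KO with overlapping genotypes. The summed TPM of the 16 genes was 2157 to 2183 in WT and 2491 to 2531 in KO libraries.

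In the formative and primed list, 6 of 20 tested genes fell, 0 rose and 14 were not called (median -0.11), against 0.713% lower calls over all genes. The list was chosen with earlier results of these data known. DESeq2 called 8 of its genes lower and 1 higher. With only the 4 ESC libraries in the fit 3 fell, and 1 fell with limma on log2(TPM + 1) or log2(TPM + 0.1). *Otx2*, which opens enhancers of the formative state, was at 51.7 and 55.5 CPM in WT and 29.9 and 25.6 CPM in KO, and *Lef1*, a transcription factor of Wnt signalling, was at 4.62 and 3.09 CPM in WT and 0.730 and 1.16 CPM in KO. *Grhl2*, which controls epithelial genes, was at 19.6 and 19.7 CPM in WT and 8.90 and 7.81 CPM in KO, 2.35-fold lower in KO (log2 fold change -1.23, standard error 0.114, adjusted p = 8.6e-06). *Dnmt3l* was at 318 and 286 CPM in WT and 230.0 and 218 CPM in KO (log2 fold change -0.43, adjusted p = 0.0041) and *Dnmt3a* at 124 and 114 CPM in WT and 99.8 and 92.2 CPM in KO (log2 fold change -0.31, adjusted p = 0.023), the first a cofactor and the second an enzyme of de novo DNA methylation. The third gene of this machinery, *Dnmt3b*, was at 114 and 102 CPM in WT and 92.5 and 88.5 CPM in KO and was not called (adjusted p = 0.071). *Fgf15*, a secreted growth factor, was at 6.16 and 6.75 CPM in WT and 4.38 and 2.87 CPM in KO (log2 fold change -0.83, adjusted p = 0.030). The apical sialomucin *Podxl* lay just outside the threshold at 68.3 and 58.5 CPM in WT and 49.5 and 47.0 CPM in KO (adjusted p = 0.050). *Pou3f1* had the opposite sign, at 3.30 and 2.28 CPM in WT and 5.08 and 3.99 CPM in KO (log2 fold change 0.70, adjusted p = 0.11). The calls of *Otx2*, *Lef1* and *Grhl2* held with each library left out (*Lef1* was not called with only the 4 ESC libraries in the fit, nor *Lef1* and *Grhl2* by limma on TPM), those of *Dnmt3a* and *Fgf15* in 1 fit each, and that of *Dnmt3l* was lost without WT replicate 1 or KO replicate 2.

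**Figure D2:**
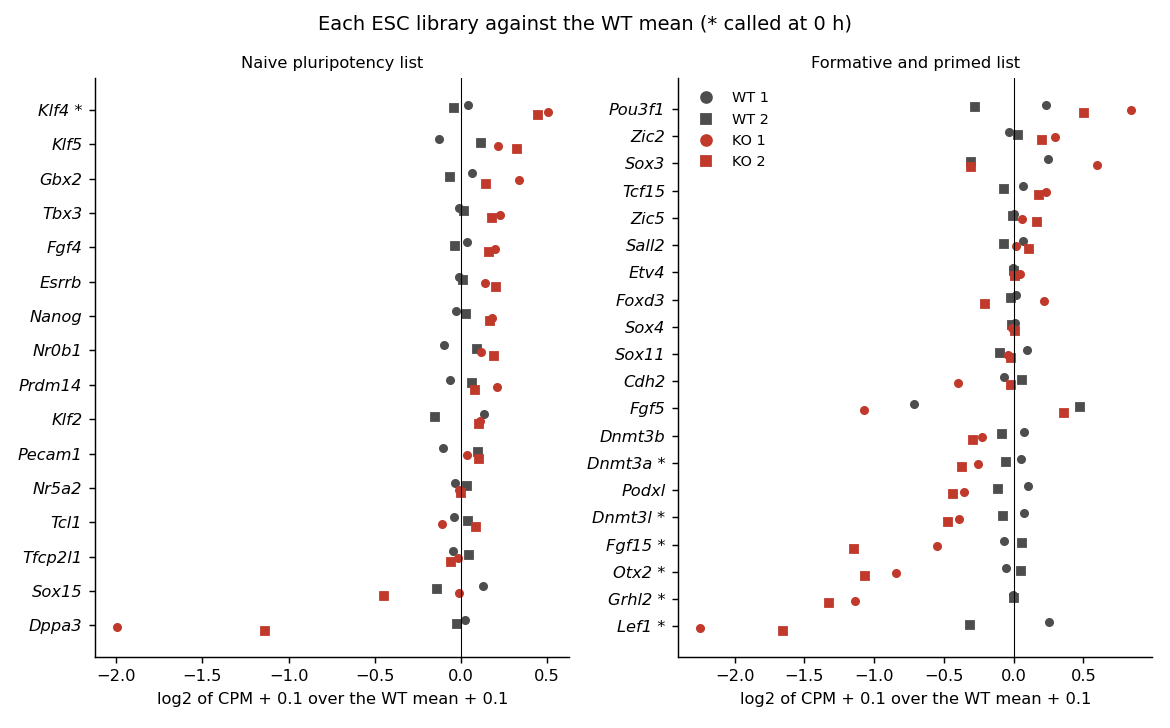
Each symbol is 1 ESC library, placed by the log2 ratio of its CPM to the WT mean (0.1 added to both), with 1 gene per line and an asterisk for called genes. In the naive list only *Klf4* was called, and in the formative and primed list the 6 called genes all lie below 0, with *Lef1* at the far end.

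Lists of signalling genes outside these states held 1 call each. That call is 3.57% of the Wnt list and 12.5% of the Hedgehog list, the longest and the shortest, against 0.991% called over all genes. The lists were chosen with earlier results or values of these data known, so their shares do not test an excess. In the Nodal and BMP list, *Lefty1*, an inhibitor of Nodal, was the only call among 20 genes, at 102 and 91.1 CPM in WT and 52.7 and 43.9 CPM in KO (log2 fold change -1.0, standard error 0.116, adjusted p = 0.0001). *Lefty2* was at 262 and 265 CPM in WT and 163 and 159.7 CPM in KO, lower in both KO libraries, and was not called (adjusted p = 0.079). *Lef1* was the only call among 28 Wnt genes (list median -0.17), *Fgf15* the only one among 25 genes of the FGF list, and *Klf4* the only one among 16 genes of the LIF list. Of lists chosen after values were seen, the Notch list had *Dll1* as its only call among 14 genes and the Hedgehog list *Ptch1*, the Hedgehog receptor, among 8, at 81.9 and 72.6 CPM in WT and 58.8 and 53.7 CPM in KO (log2 fold change -0.46, adjusted p = 0.048), a call lost with any ESC library left out. Among the 47 markers of primitive endoderm, trophoblast, mesoderm, neuroectoderm and fibroblasts that were tested, 0 were called by edgeR and 1 by DESeq2. Of these markers 6 had an unadjusted p under 0.05 by edgeR, beside 1653 of 17250 over all genes. Of 12 genes that mark the rare *Zscan4* state of ESC cultures, 0 were called by edgeR or DESeq2 and 3 had an unadjusted p under 0.05. The summed level of the *Zscan4* state list overlapped between the genotypes, at 5.75 and 15.7 TPM in WT and 10.4 and 7.30 TPM in KO libraries.

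Some genes of the amino acid stress response rose. This list was chosen with earlier results of these data known, so its shares do not test an excess. Of the 17 genes on it, 4 rose, 0 fell and 13 were not called, against 0.278% and 0.713% of all genes. The list median was 0.44 against 0.01 over all genes. All but *Cebpb* had a log2 fold change above 0. *Atf4*, the central factor of the response, was at 184 and 182 CPM in WT and 254 and 261 CPM in KO, 1.41-fold higher in KO (log2 fold change 0.49, standard error 0.0823, adjusted p = 0.0024). *Atf5*, a related factor and a target of the same pathway, was at 30.9 and 25.9 CPM in WT and 49.0 and 58.5 CPM in KO (log2 fold change 0.92, standard error 0.166, adjusted p = 0.0049). *Slc7a5* and *Slc3a2* encode the light and heavy chains of one transporter of large neutral amino acids. *Slc7a5* was at 346 and 350.0 CPM in WT and 475 and 452 CPM in KO and *Slc3a2* at 292 and 285 CPM in WT and 387 and 399.9 CPM in KO, with log2 fold changes of 0.41 and 0.45 (adjusted p = 0.0061 and 0.0024). For these 4 genes both KO libraries were above both WT libraries. The calls of *Atf4* and *Slc3a2* were lost without KO replicate 2 (adjusted p = 0.062 and 0.057), that of *Atf5* without WT or KO replicate 2, and that of *Slc7a5* without WT or KO replicate 1. With average transcript lengths as offsets *Atf4* alone stayed called, and the list median was 0.35.

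The other 13 genes of this list were not called in the main fit. Across the list, 6 genes rose with DESeq2, 8 without a filter on low counts, 8 with only the 4 ESC libraries in the fit and 1 with limma on log2(TPM + 1). *Asns*, asparagine synthetase, was at 412 and 435 CPM in WT and 517 and 544 CPM in KO (adjusted p = 0.063). *Pycr1*, which makes proline, was at 19.2 and 26.2 CPM in WT and 40.8 and 48.5 CPM in KO (adjusted p = 0.11), and *Phgdh*, the first enzyme of serine synthesis, at 116 and 110.0 CPM in WT and 142 and 164 CPM in KO (adjusted p = 0.10). *Trib3*, a pseudokinase that dampens ATF4, was at 38.5 and 37.6 CPM in WT and 59.2 and 57.3 CPM in KO (adjusted p = 0.22). The median over the list lay between 0.30 and 0.48 in all alternatives. It was lowest with the number of detected genes as a covariate, in a fit where 5 genes were called.

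Transporters and tRNA synthetases, lists chosen after values were seen, held further calls. Of 18 amino acid transporters, 4 rose and 0 fell, against 0.278% higher calls over all genes. Beside *Slc7a5* and *Slc3a2* these were *Slc7a1*, a carrier of arginine and lysine, at 173 and 169.6 CPM in WT and 237 and 238 CPM in KO (log2 fold change 0.47, adjusted p = 0.016), and *Slc38a7*, a glutamine carrier of the lysosome, at 59.8 and 58.6 CPM in WT and 86.3 and 86.7 CPM in KO (log2 fold change 0.55, adjusted p = 0.011). Of 20 cytosolic tRNA synthetases, 2 rose and 17 had a log2 fold change above 0, with a median of 0.15. Over all genes, 8766 of 17250 were above 0. *Aars*, alanyl-tRNA synthetase, was at 656 and 642 CPM in WT and 804 and 859 CPM in KO (log2 fold change 0.36, adjusted p = 0.0043), and *Gars*, glycyl-tRNA synthetase, was at 363 and 371 CPM in WT and 429 and 482 CPM in KO (log2 fold change 0.31, adjusted p = 0.039). *Pck2*, the mitochondrial form of phosphoenolpyruvate carboxykinase, was at 35.8 and 28.7 CPM in WT and 55.4 and 55.5 CPM in KO (log2 fold change 0.78, adjusted p = 0.044). The calls of *Slc7a1*, *Slc38a7* and *Pck2* were lost with any ESC library left out, and those of *Aars* and *Gars* in 2 and 3 of the 4 fits.

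**Figure D3:**
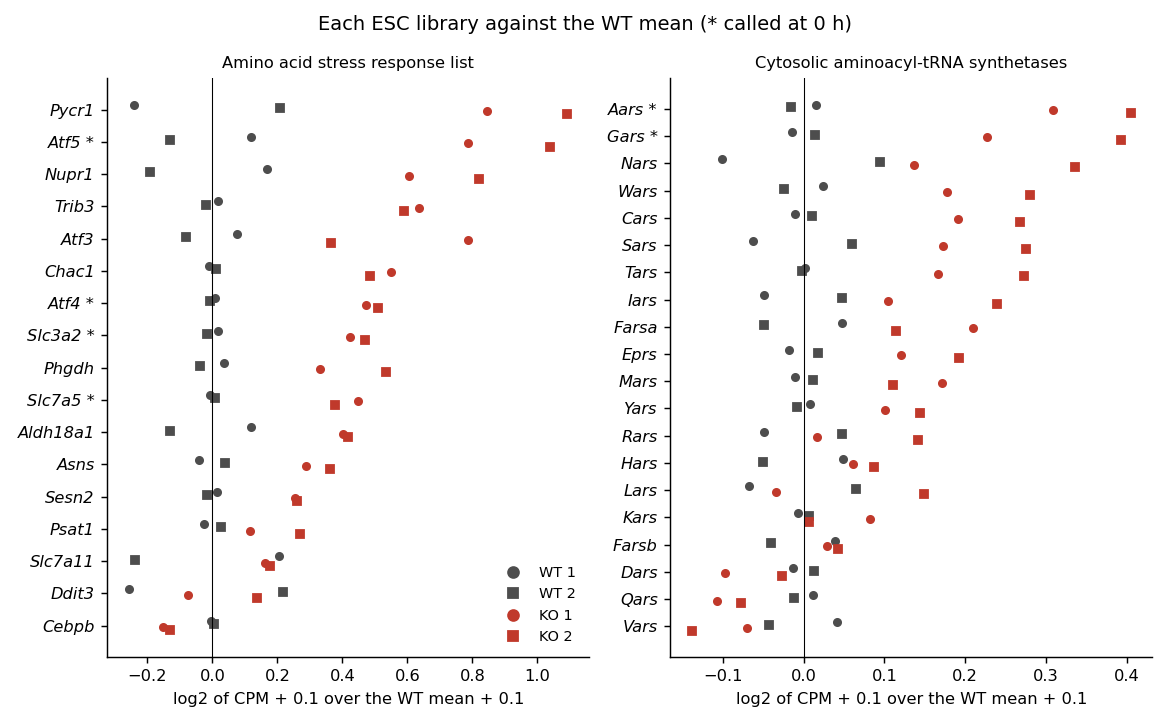
Each symbol is 1 ESC library, placed by the log2 ratio of its CPM to the WT mean (0.1 added to both), for the 17 genes of the amino acid stress response and 20 tRNA synthetases. Asterisks mark the 4 and 2 called genes, and both KO libraries lie to the right of both WT libraries for each of them.

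Promoters of these genes were searched for the letters TGATGNAA, on both strands, in the 250 bases before the annotated start, with sequences from RefSeq (GRCm38.p6). They occurred in 6 of the 16 amino acid stress genes with an entry (37.5%), against 3.91% of 27025 gene symbols in the table. Those 6 were *Atf3*, *Chac1*, *Asns*, *Slc7a11*, *Nupr1* and *Pycr1*, none of which was called. Among all genes called as higher, 3 of the 34 with an entry held the letters (8.82%), and these were *Aars*, *Gars* and *Pck2*, while 4 of the 90 with an entry did so among the lower genes (4.44%) and 2.66% among all tested genes with an entry. A match is a description of the letters and not of a bound site. The 3 called genes with a match are shown with 2 that were not called, in 80 bases on the strand of the gene, with the match in capitals. *Aars* (chr8:111033694-111033773, forward strand), *Gars* (chr6:55037921-55038000, forward) and *Pck2* (chr14:55540127-55540206, forward) carry the letters on the strand opposite to the gene. *Asns* (chr6:7693210-7693289, reverse strand) and *Pycr1* (chr11:120643808-120643887, reverse) carry them on the strand of the gene.
Aars: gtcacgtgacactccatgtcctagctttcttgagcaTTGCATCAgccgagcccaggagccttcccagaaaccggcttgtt
Gars: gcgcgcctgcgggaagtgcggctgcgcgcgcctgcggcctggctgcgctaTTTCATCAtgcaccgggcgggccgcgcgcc
Pck2: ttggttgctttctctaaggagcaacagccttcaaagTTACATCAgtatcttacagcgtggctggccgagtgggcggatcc
Asns: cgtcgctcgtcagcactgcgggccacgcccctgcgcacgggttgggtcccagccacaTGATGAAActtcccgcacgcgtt
Pycr1: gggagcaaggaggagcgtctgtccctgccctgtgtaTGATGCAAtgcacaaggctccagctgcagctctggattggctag

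Some genes of the translation machinery and of polyamine synthesis fell by small amounts, in lists that were all chosen after values were seen. Of 80 cytosolic ribosomal protein genes, 5 fell (*Rpl13a*, *Rpl22*, *Rpl27a*, *Rps21* and *Rps23*) and 0 rose, against 0.713% lower calls over all genes. A log2 fold change below 0 was seen for 78 of the 80 (median -0.17), beside 8349 of 17250 over all genes. *Rpl27a* was at 500.2 and 545 CPM in WT and 388 and 399 CPM in KO (log2 fold change -0.41, adjusted p = 0.019), and *Rps23* was at 441 and 463 CPM in WT and 362 and 372 CPM in KO (log2 fold change -0.30, adjusted p = 0.023). The median of the 80 genes in spheroids was -0.13 at 24 h and 0.07 at 48 h. Among 15 translation factors, *Pabpc1*, the cytosolic poly(A)-binding protein, and *Eif4b*, a helper of the eIF4A helicase, fell. *Pabpc1* was at 1752 and 1740.0 CPM in WT and 1467 and 1477 CPM in KO (log2 fold change -0.25, adjusted p = 0.019). Among 8 genes of polyamine metabolism, *Sms*, spermine synthase, was at 139 and 133 CPM in WT and 93.9 and 93.7 CPM in KO (log2 fold change -0.54, adjusted p = 0.0024), and *Srm*, spermidine synthase, was at 164 and 157 CPM in WT and 129.7 and 121 CPM in KO (log2 fold change -0.36, adjusted p = 0.029). The call of *Sms* held in every alternative, while those of the ribosomal proteins named, *Pabpc1*, *Eif4b* and *Srm* were lost with any ESC library left out.

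The median difference moved with transcript length, which here is kallisto's effective length, averaged by TPM over the transcripts of a gene, and not the full length. Among genes with an average log2 CPM over 4, the median log2 fold change was -0.12 for 241 genes up to 500 bases long, -0.067 for 414 genes of 500 to 800 bases, 0.0018 for 1881 genes of 1200 to 2000 bases and 0.06 for 840 genes over 5000 bases. All 25 calls among the 1412 genes up to 1200 bases were lower in KO. The 590 genes up to 800 bases that are no ribosomal protein genes had a median of -0.07, beside -0.16 for the 79 ribosomal protein genes of this level. Transcript length therefore moved with the ribosomal protein result, and its part in it was not tested. The fit with average transcript lengths as offsets cannot decide this, since it uses only differences of a gene's own length between libraries. In that fit the ribosomal proteins had a median of -0.15 and 0 calls, while 35 of the 171 main calls over all genes were kept.

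**Figure D4:**
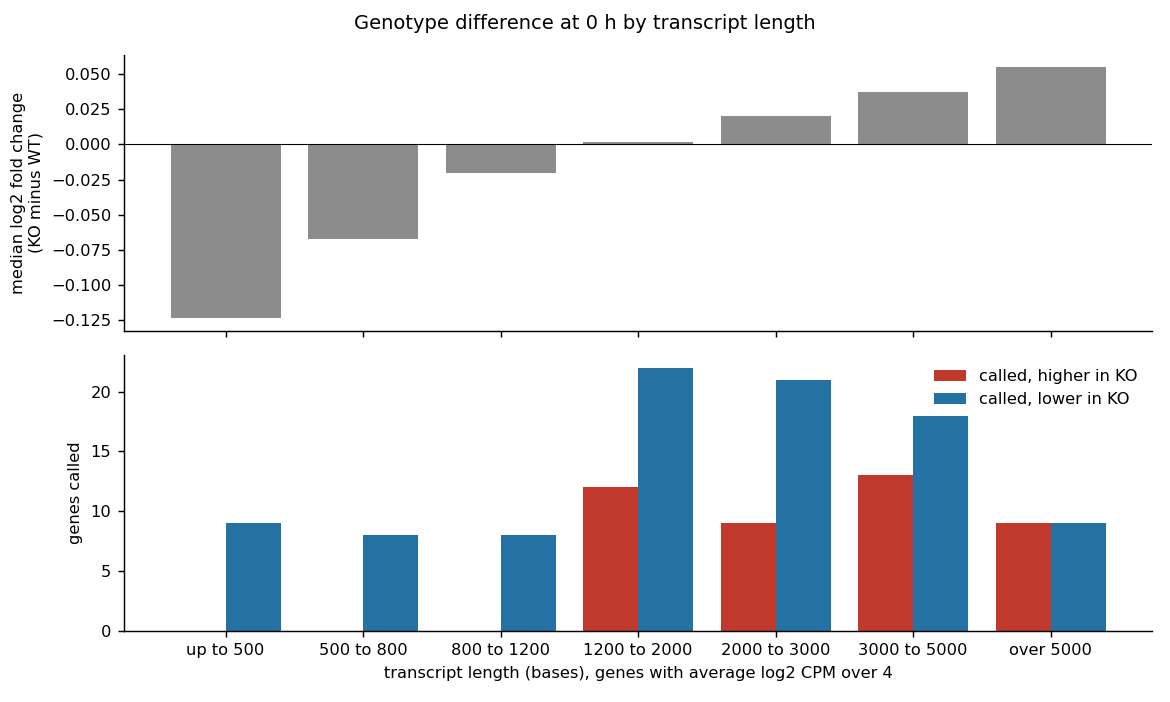
The upper bars give the median log2 fold change at 0 h (KO minus WT) of genes with an average log2 CPM over 4. Genes are grouped by transcript length in bases (kallisto's effective length), and the lower bars give the number of called genes. The median goes from -0.12 in the shortest to 0.06 in the longest class, and no gene up to 1200 bases was called as higher.

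Genes of energy metabolism gave scattered calls. Called genes made up 7.14% of the glycolysis and hypoxia list and 4.76% of the one-carbon list, against 0.991% of all genes. In the glycolysis and hypoxia list, the glucose transporters *Slc2a1* (418 and 359 CPM in WT and 499 and 497 CPM in KO) and *Slc2a3* (1005 and 1005 CPM in WT and 1253 and 1374 CPM in KO) rose and no other of the 28 genes was called (list median -0.12). The adjusted p-values were 0.020 and 0.0058. *Ldhb*, a subunit of lactate dehydrogenase, was at 294 and 331 CPM in WT and 186 and 208 CPM in KO (log2 fold change -0.67, adjusted p = 0.00012), a fall that was called in every alternative. *Pgd*, an enzyme of the pentose phosphate pathway, was at 199 and 193 CPM in WT and 143 and 132 CPM in KO (log2 fold change -0.51, adjusted p = 0.0016). *Pdha1*, a subunit of pyruvate dehydrogenase, was at 319.7 and 339.6 CPM in WT and 252 and 264 CPM in KO (log2 fold change -0.35, adjusted p = 0.029), and *Acss1*, which makes acetyl-CoA from acetate in mitochondria, was at 97.1 and 108 CPM in WT and 68.9 and 63.5 CPM in KO (log2 fold change -0.63, adjusted p = 0.0072). *Ldhb*, *Pgd*, *Pdha1* and *Acss1* were chosen after their values were seen, and the call of *Pgd* was lost without KO replicate 2. The calls of both glucose transporters, *Acss1* and *Gldc* held in 1 of the 4 fits with a library left out, and those of *Pdha1*, *Uqcrh* and *Atp5l* in none. Of 38 nuclear genes of the respiratory chain, 0 were called by edgeR and 2 by DESeq2, 8 had an unadjusted p under 0.05 and the median was -0.08. The 13 mitochondrial genes gave 0 calls by either tool, with 1 at an unadjusted p under 0.05. By edgeR, 1653 of 17250 genes had such a p over all genes. Among the shorter transcripts outside that list, *Uqcrh* and *Atp5l*, subunits of complex III and of ATP synthase, fell, at 115 and 112 CPM in WT and 86.0 and 85.1 CPM in KO and 123 and 128 CPM in WT and 91.5 and 93.5 CPM in KO. *Gldc*, which cleaves glycine in mitochondria, was the only call of 21 one-carbon genes, at 447 and 476 CPM in WT and 351 and 348 CPM in KO (log2 fold change -0.40, adjusted p = 0.0098).

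In the lipid lists, no gene other than *Cidea* was called by edgeR. Among 29 genes of lipid droplet storage and lipolysis the median log2 fold change was -0.06. *Plin2*, the droplet coat protein, was at 19.7 and 15.9 CPM in WT and 16.8 and 18.7 CPM in KO and *Plin3* at 104 and 84.7 CPM in WT and 82.8 and 94.2 CPM in KO, and in both genes the genotypes overlapped. The lists of fatty acid oxidation (24 genes), cholesterol synthesis (24 genes), fatty acid synthesis (12 genes) and autophagy and lysosome (34 genes) held 0 calls by edgeR, with medians of 0.01, -0.08, 0.11 and 0.01. Over these 4 lists 13 of 94 genes had an unadjusted p under 0.05 by edgeR, beside 1653 of 17250 over all genes. DESeq2 called 1 of the 94. *Ephx2*, soluble epoxide hydrolase, and *Alox15*, a lipoxygenase, act on fatty acids outside these lists and fell, *Ephx2* at 90.8 and 102 CPM in WT and 56.1 and 55.4 CPM in KO (log2 fold change -0.79, adjusted p = 0.0015) and *Alox15* at 3.82 and 2.62 CPM in WT and 1.01 and 0.770 CPM in KO (log2 fold change -1.85, adjusted p = 0.0047). Both were named after their values were seen, and the call of *Alox15* was lost without WT replicate 1 or KO replicate 2.

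In a list of 14 genes against metal and peroxide stress, chosen after values were seen, 4 fell, 0 rose and 10 were not called, against 0.713% lower calls over all genes. The metallothioneins *Mt1* (118 and 116 CPM in WT and 75.6 and 75.4 CPM in KO) and *Mt2* (209.7 and 198 CPM in WT and 149 and 154 CPM in KO) bind zinc and copper, and their log2 fold changes were -0.64 and -0.43 (adjusted p = 0.00067 and 0.0064). *Gpx4*, which reduces lipid peroxides, was at 574 and 571 CPM in WT and 399 and 414 CPM in KO (log2 fold change -0.49, adjusted p = 0.00072), and *Prdx6*, a peroxiredoxin, at 152 and 153 CPM in WT and 128 and 110.2 CPM in KO (log2 fold change -0.35, adjusted p = 0.042). The calls of *Mt1* and *Gpx4* held with each library left out, that of *Mt2* only without WT replicate 2 and that of *Prdx6* in no such fit. The NRF2 list of 14 genes and the heat shock list of 17 genes held 0 calls by edgeR or DESeq2. They had 4 and 5 genes at an unadjusted p under 0.05 by edgeR, beside 1653 of 17250 over all genes.

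Imprinted genes were called in both directions. Of 36 tested, *Nnat* and *Gnas* rose, *Grb10* and *Peg3* fell (11.1%, against 0.991% called over all genes), and the list median was 0.04. This list was chosen with earlier results of these data known, so its share does not test an excess. *Gnas*, the stimulatory G protein subunit, was at 194 and 191 CPM in WT and 247 and 252 CPM in KO (log2 fold change 0.37, adjusted p = 0.0075), and *Peg3*, a paternally expressed zinc finger gene, was at 76.1 and 61.6 CPM in WT and 46.3 and 48.5 CPM in KO (log2 fold change -0.54, adjusted p = 0.010). *Impact*, an imprinted gene outside the list, was at 139.7 and 158 CPM in WT and 191 and 196 CPM in KO (log2 fold change 0.38, adjusted p = 0.024). The call of *Gnas* was lost with any library left out, and those of *Peg3* and *Impact* held only without WT replicate 2. *Grb10* and *Nnat* were called in every alternative. The differences of all 4 listed genes had the same sign and were called again in spheroids. *Grb10* had a log2 fold change of -2.42 at 24 h and -2.34 at 48 h, and *Nnat* of 1.15 and 1.81.

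Cell adhesion genes were called in both directions. In the desmosome list of 9 genes 2 were higher and 1 lower (33.3%, against 0.991% called over all genes). This list and *Vim* were chosen after values were seen. *Dsg2*, a desmosomal cadherin, was at 56.0 and 61.8 CPM in WT and 102 and 109.7 CPM in KO (log2 fold change 0.84, standard error 0.126, adjusted p = 0.00091), and its call held with each library left out. *Perp*, a p53 target and desmosome component, was at 14.5 and 14 CPM in WT and 25.7 and 25.6 CPM in KO (log2 fold change 0.84, adjusted p = 0.023), while *Pkp2*, a plakophilin of the same junction, was lower at 69.5 and 66.0 CPM in WT and 45.8 and 39.4 CPM in KO (log2 fold change -0.67, adjusted p = 0.0038). *Cgn*, the tight junction protein cingulin, was at 32.3 and 26.9 CPM in WT and 17.0 and 18.9 CPM in KO (log2 fold change -0.72, adjusted p = 0.0061), and it was, with *Grhl2*, one of 2 falls among 24 tight junction and epithelial genes. The apical polarity list of 27 genes had 0 calls by edgeR and 3 by DESeq2, with a median of 0.09. An unadjusted p under 0.05 by edgeR was seen for 4 of the 27, beside 1653 of 17250 over all genes. Of 24 integrin and matrix genes, *Lamb1*, laminin beta 1, and *Col18a1* fell, *Lamb1* at 72.7 and 80.2 CPM in WT and 61.6 and 55.0 CPM in KO and *Col18a1* at 317 and 312 CPM in WT and 265 and 249 CPM in KO, both calls lost with any ESC library left out. *Vim*, the intermediate filament gene, was at 227 and 227 CPM in WT and 152 and 161 CPM in KO (log2 fold change -0.53, adjusted p = 0.0010). The call of *Pkp2* was lost without KO replicate 2 (adjusted p = 0.12), that of *Vim* without KO replicate 1 (adjusted p = 0.052), that of *Cgn* without WT or KO replicate 1 and that of *Perp* with any library left out.

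Lists of cell death, cell cycle and immune genes held at most 2 calls each. Called genes made up 3.33% of the cell cycle and Myc list and 13.3% of the interferon-inducible GTPases, against 0.991% of all genes. Among 24 p53 targets *Perp* alone was called. A log2 fold change above 0 was seen for 21 of them (median 0.14), beside 8766 of 17250 over all genes. *Bmf*, a BH3-only activator of cell death, was the only call of 18 Bcl2 family genes, at 40.7 and 33.7 CPM in WT and 24.0 and 21.1 CPM in KO (log2 fold change -0.72, adjusted p = 0.0038). *Ccnd2* was the only call of 30 cell cycle and Myc genes. Of 15 interferon-inducible GTPases, *Irgm1* (2.77 and 2.48 CPM in WT and 0.382 and 0.560 CPM in KO) and *Tgtp1* (2.80 and 1.11 CPM in WT and 0.243 and 0.175 CPM in KO) fell, whereas *H2-D1*, a class I histocompatibility gene, rose (34.3 and 40.7 CPM in WT and 57.2 and 57.1 CPM in KO) as the only call of 30 interferon response genes. *H2-K1* was at 58.3 and 57.8 CPM in WT and 76.1 and 82.4 CPM in KO and was not called (adjusted p = 0.11). *Tubb6*, a beta-tubulin that neighbours *Cidea* on chromosome 18, was at 39.1 and 35.0 CPM in WT and 58.2 and 61.1 CPM in KO (log2 fold change 0.69, adjusted p = 0.0022), the only call of 7 beta-tubulins, which held with each library left out. The call of *Bmf* was lost without WT replicate 1 or KO replicate 2, that of *Irgm1* without WT or KO replicate 1, that of *Tgtp1* in 3 of the 4 fits and that of *H2-D1* in all of them.

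The meiosis and oocyte genes that were called were mostly lower in KO. In the germline list of 18 genes *Sycp3*, of the synaptonemal complex, was the only call. It was at 12.9 and 16.0 CPM in WT and 5.70 and 6.27 CPM in KO (log2 fold change -1.27, adjusted p = 0.014). Of the 18 genes, 17 had a log2 fold change below 0 (median -0.54), beside 8349 of 17250 over all genes. In a second list of 14 genes chosen after values were seen, 4 fell (*Sycp3* again among them), 1 rose and 9 were not called. Called genes made up 35.7% of this list and 5.56% of the germline list, against 0.991% of all genes. The germline list was chosen with earlier results of these data known, so neither share tests an excess. *Smc1b*, a meiotic cohesin, was at 5.6 and 6.71 CPM in WT and 2.43 and 1.65 CPM in KO (log2 fold change -1.59, adjusted p = 0.015), *Khdc3* at 38.6 and 28.3 CPM in WT and 16.2 and 12.7 CPM in KO (log2 fold change -1.21, adjusted p = 0.019) and *Prss50*, a testis protease, at 6.86 and 4.60 CPM in WT and 1.53 and 1.72 CPM in KO (log2 fold change -1.82, adjusted p = 0.0098). *Tex14* rose, at 34.3 and 34.0 CPM in WT and 46.5 and 56.0 CPM in KO (log2 fold change 0.59, adjusted p = 0.036). The falls named here were each called in 1 of the 4 fits with a library left out, and the rise of *Tex14* in none.

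Called genes were spread over the chromosomes, with chromosome 8 standing slightly apart. Among its 669 genes with an average log2 CPM over 1 the median log2 fold change was 0.08, beside -0.01 to 0.03 on the other autosomes and the X. In spheroids it was 0.05 both at 24 h and after 48 h. Over all genes, 0.278% were called as higher and 0.713% as lower. Of the 896 genes tested on chromosome 8, 9 were called as higher, including *Aars*, *Slc7a5*, *Slc38a7* and *Zfp42*, and 5 as lower. The position of these genes moved with the chromosome median, whose part in their results was not tested. The X chromosome held 0 higher and 9 lower calls among 650 genes.

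The genes called at 0 h were followed in spheroids, whose libraries are other samples but come from the same clone, the same parental line and the same estimate of spread. Of 170 genes without *Cidea*, 162 (95.3%) had the same sign at 24 h, beside 57.8% of all genes, and 53 of them were called then. At 48 h 131 (77.1%) had the same sign, beside 55.7% of all genes, and 27 were called. In all, 196 genes (1.14%) were called at 24 h and 68 (0.394%) at 48 h. The median size of the log2 fold change of the 170 genes was 0.59 in ESCs, 0.36 in spheroids at 24 h and 0.20 in those at 48 h. The choice of genes by their values at 0 h makes the first of these the largest on average. At all 3 times, 22 genes were called with the same sign, among them *Grb10*, *Pnma5*, *Mt1*, *Mt2*, *Ldhb*, *Ptch1*, *Peg3*, *Klf6*, *Gnas*, *Car2*, *Kcnj3* and *Nnat*. *Atf5* had a log2 fold change of -0.13 at 24 h (adjusted p = 0.80), and *Atf4* of 0.34 (adjusted p = 0.049).

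**Figure D5:**
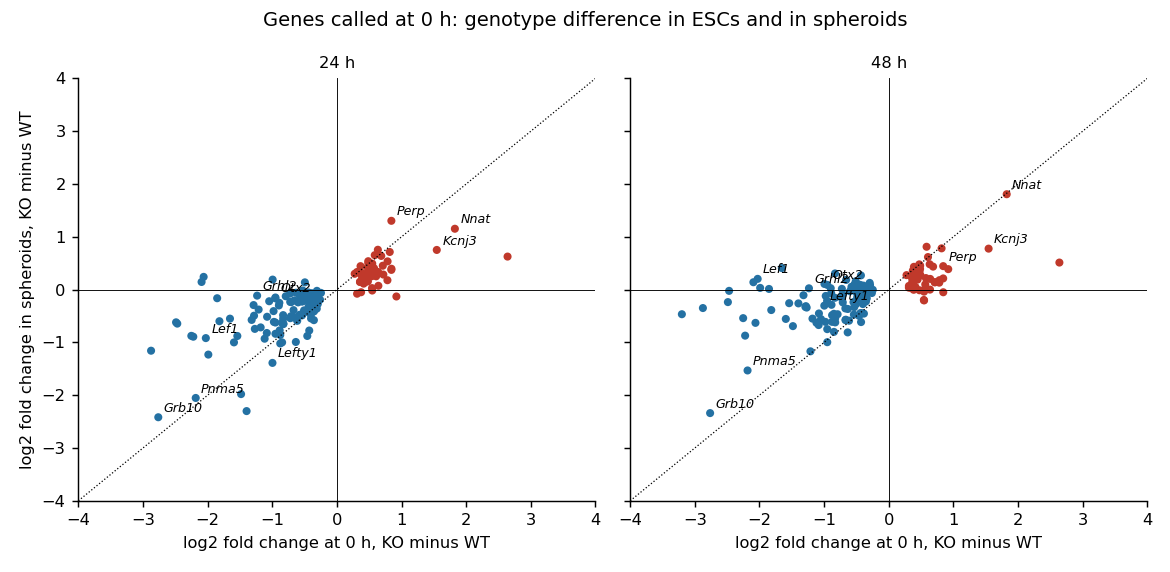
Each point is 1 of the 170 genes called at 0 h, with its log2 fold change (KO minus WT) in ESCs on the x axis and in spheroids at 24 h or 48 h on the y axis, the dotted line marking equal values. Of these, 162 have the same sign at 24 h and 131 at 48 h, and 6 and 5 genes beyond the axes are not shown.

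Whether the genotype difference changed with time was tested by interaction terms in the same fit. From 0 h to 24 h it changed for 2 of 17250 genes (0.0116%), and from 0 h to 48 h for 7 (0.0406%). *Otx2*, *Lef1*, *Grhl2*, *Lin28a*, *Dnmt3l* and *Enpp3*, an ectonucleotidase, were lower in KO ESCs and had log2 fold changes of 0.09, 0.20, 0.02, 0.10, 0.27 and 0.18 at 48 h, none of which was called then. *Enpp3* was at 52.4 and 52.0 CPM in WT and 30.7 and 35.4 CPM in KO at 0 h (log2 fold change -0.66, adjusted p = 0.0020), a call lost without KO replicate 1 (adjusted p = 0.078). *Tdh*, threonine dehydrogenase, was at 671 and 663 CPM in WT and 696 and 697 CPM in KO at 0 h without a difference that was called (adjusted p = 0.87), and its log2 fold change at 48 h was -0.43.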

How the data were processed

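Libraries were made from mRNA with a stranded kit. The authors used Trimmomatic 0.33 for trimming and kallisto 0.43.1 for quantification. The deposited tables give an estimated count per transcript, not scaled for depth or length, and the authors' TPM, scaled by kallisto for both. Reads that fit several transcripts are divided among them. Here 113580 of 115270 transcripts (98.5%) were matched to GENCODE M21 (GRCm38) and summed over 35580 genes, and counts were rounded. The unmatched transcripts held 0.659% to 0.709% of counts.

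All 12 libraries (29.0 to 38.5 M) entered 1 edgeR fit (version 4.0.16 in R 4.3.3) with a mean for each group, after filterByExpr and TMM scaling, by robust quasi-likelihood, and p-values were adjusted by Benjamini-Hochberg over 17424 genes with a threshold of 0.05. The biological coefficient of variation was 0.311. A floor of 3 counts (0.0971 to 0.103 CPM in the ESC libraries) covers counting error only. The fit, tested on simulated data for this comparison with 17424 genes, recovered 169 of 200 changed genes (84.5%) with 12 false calls. The changed genes had an average log2 CPM over 1 and were changed by 2-fold or more. The share recovered therefore does not cover smaller changes, which most of the calls here were. Replicates differed beyond sampling noise, with a chi-square per degree of freedom of 16.53 in WT and 11.04 in KO ESCs. DESeq2 1.42.0 and limma 3.58.1 on log2(TPM + 1) and log2(TPM + 0.1) were among the alternatives.

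Genes named are the 12 largest rises and falls among calls whose average log2 CPM reached 1, called list members, up to 3 other members per list of high TPM or needed for their role, *Cidea* and genes called for an interaction; all others were chosen after their values were seen. The gene lists and members were chosen with earlier results of these data known.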

Additional observations from a re-analysis of the deposited data

Results flagged for a closer look

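The genotype difference changed with time, by an interaction term in edgeR (quasi-likelihood, all genes), in 9 results, given as the difference at the later time minus that at 0 h on the log2 scale. At 24 h these were *Grhl2* (1.12, adjusted p = 0.0044) and *Pou3f1* (-1.94, adjusted p = 0.0029). At 48 h they were *Grhl2* (1.26, adjusted p = 0.0016), *Otx2* (1.04, adjusted p = 0.0024), *Lef1* (2.23, adjusted p = 0.0090), *Lin28a* (0.63, adjusted p = 0.0090), *Dnmt3l* (0.70, adjusted p = 0.011), *Enpp3* (0.84, adjusted p = 0.049) and *Tdh* (-0.49, adjusted p = 0.049). With average transcript lengths as offsets 0 genes were called for the interaction at 24 h and 2 at 48 h. *Pou3f1* was the only one of these 8 genes whose log2 fold change was positive in ESCs and negative at 24 h.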

How the results depend on the processing

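Genes called at 0 h numbered 171 (48 higher, 123 lower). DESeq2 called 315 (105 and 210), edgeR without a filter on low counts 326 (121 and 205), average transcript lengths as offsets 40 (9 and 31), limma on log2(TPM + 1) 15 (2 and 13) and limma on log2(TPM + 0.1) 13 (2 and 11). Leaving out 1 ESC library gave 44 to 94 calls (11 to 29 higher, 33 to 69 lower). An alternative chosen after seeing the data, without the KO 24 h library that stood apart, gave 371 (146 and 225). With the replicate block 168 were called (47 and 121). Libraries sharing a number deviated together with a correlation of 0.0033 at 0 h, 0.0508 at 24 h and -0.0094 at 48 h. Detected genes were more in replicate 1 of both genotypes at 0 h and fewer at 24 h and 48 h. These values do not decide whether the numbers pair the samples. DESeq2's size factors in edgeR gave 178, at least 10 counts in every library 198, only the 4 ESC libraries 159 and detected genes as a covariate 227. All main calls that could be tested kept their direction in each alternative, and 6 (*Grb10*, *Ldhb*, *Mt1*, *Nnat*, *Otx2* and *Sms*) were called in every one. The cause of these shifts was not tested.

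Interaction calls, 2 at 24 h and 7 at 48 h, were 15 and 72 with DESeq2, 82 and 123 without a filter, 0 and 2 with length offsets, and 0 and 0 with limma on log2(TPM + 1) and on log2(TPM + 0.1). At least 10 counts in every library gave 7 at 24 h, detected genes as a covariate 6, and leaving out the KO 24 h library 5 and 57. Without 1 ESC library they were 1 to 8 and 4 to 8. At an unadjusted p under 0.05 there were 986 genes at 24 h and 931 at 48 h with limma on log2(TPM + 1), 1016 and 872 on log2(TPM + 0.1), and 1007 at 24 h with length offsets. Among named genes, only values near 0 reversed. *Tfcp2l1* (-0.04) was 0.0010 and 0.0011 with limma on log2(TPM + 1) and log2(TPM + 0.1) and -0.077 to 0.015 with 1 ESC library left out (positive without WT replicate 2). *Plin2* (0.00, below 0) was 0.0667 with the covariate, 0.0039 without the KO 24 h library and -0.143 to 0.163 with 1 left out (positive without WT or KO replicate 1). *Plin3* (-0.09) was -0.222 to 0.0711 (positive without WT or KO replicate 1). Lists and genes at a few counts per library cannot be resolved at this depth.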
